A study of Mus musculus with 4 samples.

Results

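The genes that make prostaglandins and leukotrienes from arachidonic acid were examined in the ischaemic mouse cortex. Members were the spots, other than controls, whose RefSeq accession belongs to Pla2g4a, Ptgs1, Ptgs2, Ptges, Ptges2, Ptges3, Ptgds, Alox5, Alox5ap or Ltc4s, and every probe was kept apart. The 10 genes had 14 probes of the 39429 on the array, and all 14 were among the 30259 probes that were bright enough to test. The tested samples were the ipsilateral (injured side) cortex of Ndrg2KO mice, which carry a knockout of the N-myc downstream-regulated gene Ndrg2, and they were set against the same tissue of wild-type mice. Both groups were C57BL/6 mice of 8 weeks whose left middle cerebral artery had been closed permanently by electrocoagulation (pMCAO), and tissue was taken after 24 h. Each of the 4 arrays held 1 knockout-labelled sample in the dye Cy3 and 1 wild-type sample in Cy5, so there were 4 samples per group, and the knockout-labelled sample was always the Cy3 one. Genotype and dye therefore cannot be told apart for a single probe. No sham-operated or contralateral tissue was analysed here, so every value compares injured cortex with injured cortex. The labels name no cell type or promoter for the deletion and do not say that each sample was a separate animal, so p-values measure the spread between these samples, which may be technical.

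Arachidonic acid is cut from membrane phospholipids by phospholipase A2. Cyclooxygenases turn it into prostaglandin H2, from which terminal synthases make prostaglandin E2, prostaglandin D2, thromboxane and other prostanoids. 5-lipoxygenase, helped by its activating protein, makes leukotriene A4, which is turned into leukotriene B4 or, by conjugation with glutathione, leukotriene C4. In the brain both branches are known for their induction after ischaemia, in neurons, glia, vessels and invading leukocytes, and prostaglandin D synthase is one of the abundant transcripts of leptomeninges, choroid plexus and oligodendrocytes.

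Apart from controls each array held 43020 spots. The share well above background was 73.6 to 74.9% for knockout-labelled RNA and 76.7 to 79.0% for wild-type RNA, and no spot was saturated. The probe for Ndrg2 had normalized log2 levels of 15.50, 15.56, 15.57 and 15.56 in the knockout-labelled samples of arrays 1 to 4, against 15.72, 15.78, 15.75 and 15.67 in the wild-type samples. Its log2 ratio was -0.18 ± 0.05 (SD, n = 4; limma, adjusted p = 0.0244), so it was only slightly lower. The probe was among the brightest 2% of probes, which as a class had a median of -0.13. Its call ended in 5 of 15 alternative settings, among them the scanner software's own log ratio, at -0.04 (limma, adjusted p = 0.528). Ndrg2 lies on chromosome 14, which carries none of the 10 members. The deleted part of Ndrg2 is not given in the sources used here, and a probe outside it checks nothing. The groups are therefore named by their labels. Log ratios correlated at 0.73 between arrays 1 and 2 and at 0.63 between arrays 3 and 4, but at 0.41 to 0.47 between arrays of different pairs (Pearson's r across kept probes, which are not independent replicates).

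The 250 bases before the start are shown for Alox5, Ptgds and Ptges3, which each had a probe that passed the test, and for 3 members that did not pass: Ptgs2, the inducible cyclooxygenase, Pla2g4a, which had the lowest mean ratio, and Ptges, which had a probe with a similar array pattern. Sequences are from RefSeq (GRCm38.p6), read along the gene's strand with the base before the start last. Of the 10 members, 9 had an entry, and Pla2g4a had 2 starts, of which the first in the table was used. Capitals mark GGGCGG, the core of the GC box, on either strand, TTGCGCAA, a palindromic C/EBP element, and, in Ptgds, the match to the NF-kappaB consensus.
Ptgds, chr2:25469750-25469999, minus strand: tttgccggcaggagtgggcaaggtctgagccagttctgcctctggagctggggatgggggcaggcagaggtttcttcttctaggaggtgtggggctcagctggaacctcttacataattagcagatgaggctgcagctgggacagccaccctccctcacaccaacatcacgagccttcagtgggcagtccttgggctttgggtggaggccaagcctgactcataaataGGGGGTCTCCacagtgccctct
Ptges3, chr10:128058732-128058981, plus strand: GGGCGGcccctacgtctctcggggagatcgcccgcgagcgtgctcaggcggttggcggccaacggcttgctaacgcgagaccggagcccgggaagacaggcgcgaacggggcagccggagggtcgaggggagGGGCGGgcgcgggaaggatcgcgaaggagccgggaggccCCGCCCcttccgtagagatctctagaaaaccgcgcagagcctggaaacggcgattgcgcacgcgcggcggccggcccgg
Ptgs2, chr1:150099781-150100030, plus strand: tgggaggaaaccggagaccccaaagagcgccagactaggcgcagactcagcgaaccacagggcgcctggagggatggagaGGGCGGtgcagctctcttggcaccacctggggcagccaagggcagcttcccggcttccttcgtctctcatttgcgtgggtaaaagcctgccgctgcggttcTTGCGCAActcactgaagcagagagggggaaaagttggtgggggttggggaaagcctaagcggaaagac
Ptges, chr2:30903298-30903547, minus strand: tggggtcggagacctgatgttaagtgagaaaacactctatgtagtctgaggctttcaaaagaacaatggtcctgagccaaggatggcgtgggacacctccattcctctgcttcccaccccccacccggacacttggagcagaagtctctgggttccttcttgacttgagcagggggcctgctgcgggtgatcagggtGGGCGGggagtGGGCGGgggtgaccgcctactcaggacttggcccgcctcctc
Alox5, chr6:116461179-116461428, minus strand: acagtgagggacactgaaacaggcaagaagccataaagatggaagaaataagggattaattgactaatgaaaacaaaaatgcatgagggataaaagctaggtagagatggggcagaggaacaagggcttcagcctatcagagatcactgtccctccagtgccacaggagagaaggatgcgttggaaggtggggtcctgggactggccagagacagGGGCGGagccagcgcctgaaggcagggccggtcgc
Pla2g4a, chr1:149961291-149961540, minus strand: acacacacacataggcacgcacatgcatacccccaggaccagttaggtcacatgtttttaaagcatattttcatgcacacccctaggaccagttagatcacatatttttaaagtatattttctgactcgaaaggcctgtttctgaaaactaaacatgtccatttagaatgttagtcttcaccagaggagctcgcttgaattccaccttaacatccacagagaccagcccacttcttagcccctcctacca
Both strands were searched for GGGCGG and for TTGCGCAA, for the TATA box TATAAA, for the CCAAT box, for TGACG (the core of the cyclic AMP response element) and for the NF-kappaB consensus. GGGCGG was found in 4 of the 9 promoters, against 32.74% of the 32851 promoters in the table. It lay 170 to 165 bases before the Ptgs2 start, 53 to 48 and 42 to 37 bases before the Ptges start, and 35 to 30 bases before the Alox5 start, while Ptges3 held 3 copies, 1 of them on the opposite strand. TTGCGCAA was found in Ptgs2 alone among the 9, from 69 to 62 bases before the start, and is in 0.16% of all promoters. The NF-kappaB consensus was found in Ptgds alone among the 9, from 22 to 13 bases before the start, against 3.9% of all. None of the 9 windows held the TATA box (12.37% of all promoters), the CCAAT box (33.85%) or the cyclic AMP response element core (17.77%), which says only that these letters are not there. The Pla2g4a window held none of the motifs searched, and had 43.2% G and C bases, against 52.8% in the Alox5 window, 59.6% in that of Ptges and 61.6% in that of Ptgs2.

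Of the 14 member probes, 1 was higher in the knockout-labelled cortex, against 9.29% of all kept probes, and 2 were lower, against 11.7% (limma, adjusted p under 0.05 over 30259 probes). The higher probe was 1 of 4 for Ptges3, and the lower ones were those of Ptgds and Alox5. The other 11 probes did not pass, among them both cyclooxygenases. The log2 ratio had the same sign on all 4 arrays for 5 of 14 probes, against 43.3% of all kept probes. The levels of the groups did not overlap for 1 of 14, against 19.7%. These shares are near or below the background. The median log2 ratio was -0.08 over the 14 probes and -0.01 over all kept probes, and the members ranged between -0.34 for Pla2g4a and 0.22 for Ptges2. These are relative measures in bulk tissue, in which fewer cells of a type and less RNA per cell cannot be told apart. The plot of log2 ratios by array shows all 14 probes.

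**Figure D1:**
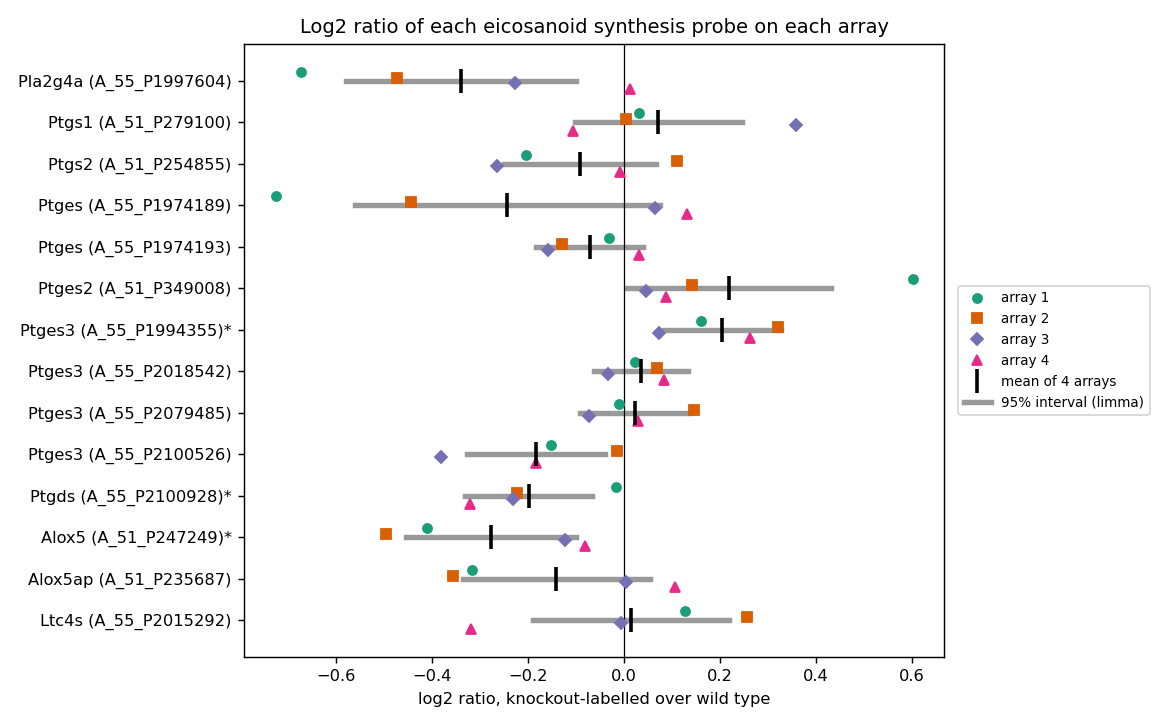
Log2 ratio, knockout-labelled over wild type (horizontal axis), of each of the 14 member probes on arrays 1 to 4 (coloured symbols), with the mean (black bar) and its 95% interval from limma (grey line). An asterisk marks the 3 probes with an adjusted p under 0.05; the symbols of arrays 1 and 2 lie to the left of those of arrays 3 and 4 for Pla2g4a, the dimmer Ptges probe, Alox5 and Alox5ap.

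Arachidonate release was represented by Pla2g4a, the cytosolic phospholipase A2 that supplies both branches. Its log2 levels were 9.60, 9.82, 10.23 and 10.34 in the knockout-labelled samples of arrays 1 to 4, against 10.28, 10.29, 10.46 and 10.33 in the wild-type samples. The knockout-labelled samples of arrays 1, 2 and 3 were below every wild-type sample, the last of these narrowly, and that of array 4 was level with its wild-type partner, so the groups overlapped. The log2 ratios were -0.67, -0.47, -0.23 and 0.01, with a mean of -0.34 ± 0.30 (SD, n = 4; 95% interval -0.58 to -0.10). This was the largest mean difference in size among the 14 probes, and it did not pass (limma, adjusted p = 0.0533). It passed without array 4, at -0.46 (adjusted p = 0.023). The knockout-labelled samples spanned 0.74 log2 units and the wild-type samples 0.18.

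The 2 cyclooxygenases did not pass. Ptgs1, the constitutive enzyme, had log2 levels of 11.40, 11.51, 11.94 and 11.68 in the knockout-labelled samples, against 11.37, 11.50, 11.58 and 11.78 in the wild-type samples. Its ratio was above 0.3 on array 3 alone and within 0.11 of 0 on the others, and its mean was 0.07 ± 0.20 (SD, n = 4; limma, adjusted p = 0.515). Leaving out array 3 turned the sign, to -0.02.

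Ptgs2, the cyclooxygenase induced by injury and synaptic activity, had log2 levels of 9.38, 9.74, 9.88 and 9.80 in the knockout-labelled samples, against 9.59, 9.63, 10.14 and 9.81 in the wild-type samples. The knockout-labelled sample was lower on arrays 1 and 3, higher on array 2 and level on array 4, and the groups overlapped. The mean log2 ratio was -0.09 ± 0.17 (SD, n = 4; 95% interval -0.25 to 0.07; limma, adjusted p = 0.360). Unlike the other members, its probe was printed 10 times on each array, which shows how much of this spread lies within an array. Outlier spots aside, 8, 9, 9 and 8 spots could be used on arrays 1 to 4. Their log2 ratios averaged -0.20, 0.11, -0.26 and -0.01, with SDs between spots of 0.080, 0.054, 0.050 and 0.023. The spots of arrays 2 and 3 ranged over 0.06 to 0.21 and -0.34 to -0.20 and did not overlap, whereas those of arrays 1 and 3 did, with -0.32 to -0.12 on array 1. Spots of 1 array share the same RNA and were averaged, so they do not add to n.

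**Figure D2:**
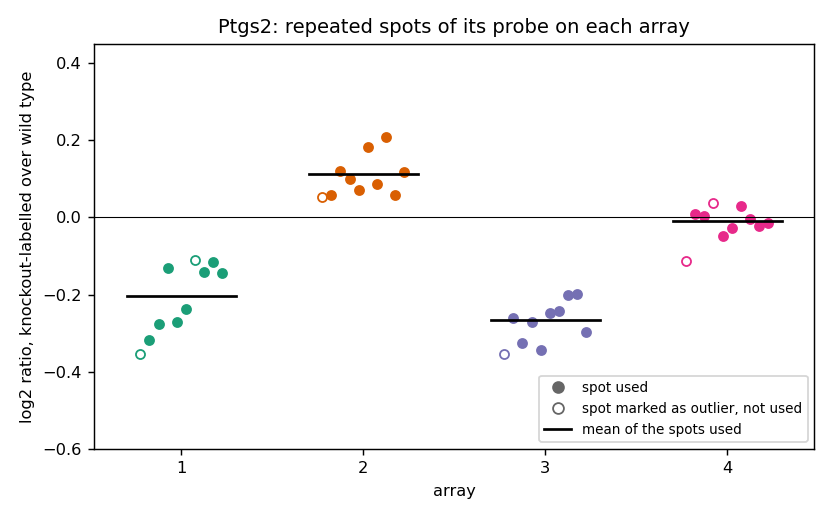
Log2 ratio, knockout-labelled over wild type (vertical axis), of every spot of the Ptgs2 probe on arrays 1 to 4 (horizontal axis), with the mean of the spots used. The spots of each array cluster within 0.080 (SD) or less, while the array means range between -0.26 and 0.11.

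The prostaglandin E synthases gave different pictures by probe. Ptges, the microsomal synthase that is induced together with Ptgs2, had 2 probes. The dimmer one, A_55_P1974189, had log2 levels of 8.13, 8.39, 9.01 and 9.27 in the knockout-labelled samples, against 8.85, 8.84, 8.95 and 9.14 in the wild-type samples. Its samples on arrays 1 and 2 were below every wild-type sample and those on arrays 3 and 4 were slightly above their partners. The mean log2 ratio was -0.24 ± 0.41 (SD, n = 4; 95% interval -0.56 to 0.08; limma, adjusted p = 0.236). The brighter probe, A_55_P1974193, had log2 levels of 14.09, 14.10, 14.12 and 14.17 in the knockout-labelled samples, against 14.12, 14.23, 14.28 and 14.14 in the wild-type samples, and a mean log2 ratio of -0.07 ± 0.09 (SD, n = 4; adjusted p = 0.314). The ratios of the dimmer probe minus those of the brighter one were -0.69, -0.31, 0.22 and 0.10 on arrays 1 to 4 (exact sign-flip permutation test, two-sided, p = 0.625). The dimmer probe had the lowest signal over local background of the 14, at 3.92 times on 1 array in the knockout-labelled channel, and was still well above background in both channels on all 4 arrays.

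Ptges2, a membrane-associated synthase expressed constitutively, had log2 levels of 12.73, 12.18, 12.10 and 12.13 in the knockout-labelled samples, against 12.13, 12.04, 12.05 and 12.05 in the wild-type samples. The knockout-labelled sample was above its partner on all 4 arrays, by 0.60 on array 1 and by 0.05 to 0.14 on the others. The mean of 0.22 ± 0.26 (SD, n = 4; limma, adjusted p = 0.125) did not pass, and without array 1 it was 0.09.

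Ptges3 encodes cytosolic prostaglandin E synthase, better known as p23, a co-chaperone of Hsp90. Its probe A_55_P1994355 had log2 levels of 13.80, 13.92, 13.82 and 13.95 in the knockout-labelled samples, against 13.64, 13.60, 13.75 and 13.69 in the wild-type samples. The groups did not overlap, and this was the only member probe of which that held. Ratios of 0.07 to 0.32 gave a mean log2 ratio of 0.20 ± 0.11 (SD, n = 4), which passed as higher (limma, adjusted p = 0.0326). The probe lay at the 90.9th percentile of brightness. Between the 90th and 95th percentiles 21.2% of probes were called higher and 10.7% lower, and the part of brightness in this call was not tested. The call ended without array 1, 2 or 4 and under plain background subtraction or a smaller offset, and median centring in place of loess turned it to -0.24. The other 3 Ptges3 probes did not pass. A_55_P2018542 had a mean log2 ratio of 0.04 (adjusted p = 0.575), A_55_P2079485 one of 0.02 (adjusted p = 0.762), and A_55_P2100526 one of -0.18 with a negative ratio on all 4 arrays (limma, adjusted p = 0.0744). Within each array A_55_P1994355 lay above A_55_P2100526, by 0.39 ± 0.07 (SD, n = 4). In an exact sign-flip permutation test this gave p = 0.125, the smallest possible with 4 arrays, and 0.175 after Benjamini-Hochberg adjustment over the 7 probe pairs of Ptges and Ptges3. The probes of Ptges3 thus disagreed in direction, and no direction is given for the gene.

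**Figure D3:**
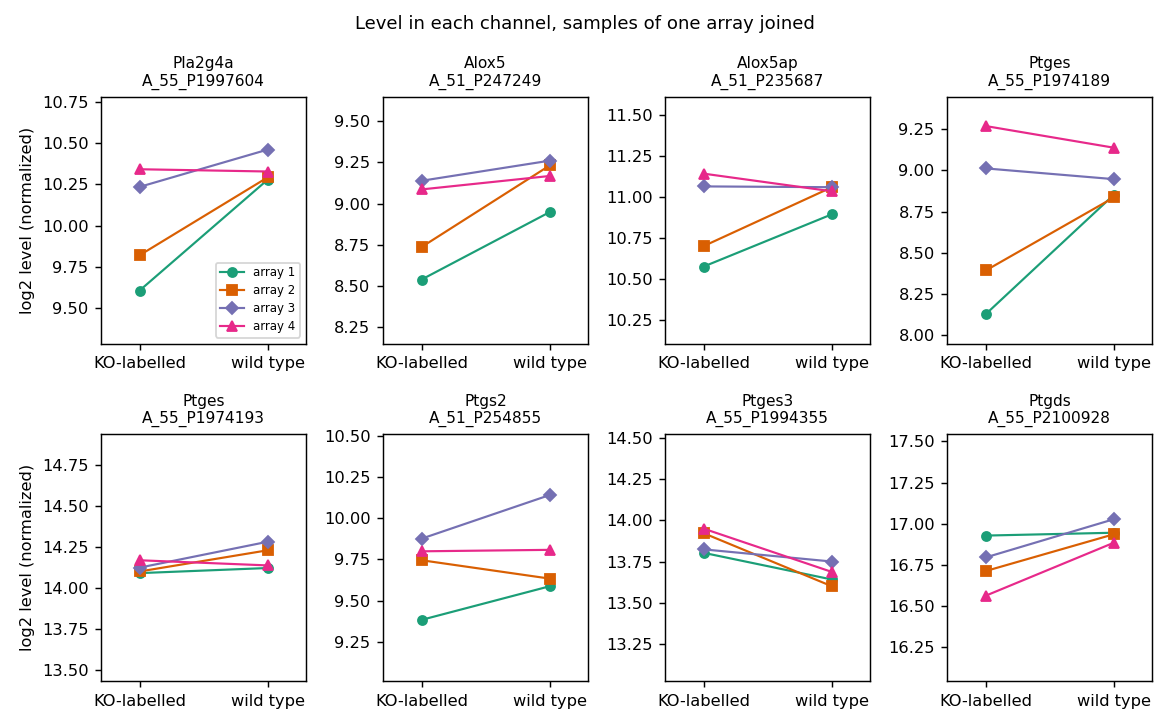
Normalized log2 level (vertical axis) in the knockout-labelled sample (left) and the wild-type sample (right) of arrays 1 to 4, joined by array. Panels show Pla2g4a, Alox5, Alox5ap, both Ptges probes, Ptgs2, the Ptges3 probe A_55_P1994355 and Ptgds. The other member probes are not drawn. The vertical axis of every panel covers 1.5 log2 units; the knockout-labelled samples spread further than the wild-type samples for Pla2g4a (0.74 against 0.18 log2 units) and the dimmer Ptges probe (1.14 against 0.30).

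Ptgds, the lipocalin-type prostaglandin D synthase that is also secreted into cerebrospinal fluid, had log2 levels of 16.93, 16.71, 16.80 and 16.56 in the knockout-labelled samples, against 16.95, 16.94, 17.03 and 16.89 in the wild-type samples. The knockout-labelled sample was level with its partner on array 1 and below it on the other 3 arrays, and the groups overlapped. Ptgds fell by 0.20 on the log2 scale, with an SD of 0.13 over 4 arrays (limma, adjusted p = 0.0448). Before normalization its signals were 45270 to 61386 for knockout-labelled RNA and 215525 to 269880 for wild-type RNA, with none marked as saturated. Such raw signals were higher in the wild-type (Cy5) channel for every member probe, as for Ltc4s with 510 to 680 against 1520 to 1783. They therefore do not measure the difference between the groups. The Ptgds probe was at the 99.8th percentile of brightness. Among the 606 probes in the brightest 2% of the array the median log2 ratio was -0.13, with 41.3% called lower and 4.13% higher. In every dimmer class the median lay between -0.030 and 0.035. The part of this brightness shift in the Ptgds result was not tested. In the scanner software's own log ratio Ptgds was at -0.04 (adjusted p = 0.620), so the call did not hold there. It also ended without array 2, 3 or 4, with no replicate block, with no filter on dim probes, under plain subtraction and with a smaller offset. Markers of the cells known to make Ptgds were mixed. For comparison, 11.7% of all kept probes were called lower and 9.29% higher. Of 8 leptomeningeal probes 2 were lower, Aldh1a2 at -0.44 and Dcn at -0.40, and summed linear levels were 19151 to 26652 in knockout-labelled samples and 23629 to 28879 in wild-type samples. Of 13 oligodendrocyte probes 1 was lower, 1 of 2 probes of Ermn at -0.41 with the other, brighter one at 0.10, and 1 was higher, 1 of 3 probes of Mbp at 0.29 with the others at 0.11 and -0.11, with sums of 181115 to 256512 in knockout-labelled samples and 203740 to 225176 in wild-type samples. Of 8 choroid plexus probes 1 was lower, 1 of 2 probes of Kcnj13 at -0.36 with the other at -0.07, and sums were 1875 to 2357 in knockout-labelled samples and 2033 to 3064 in wild-type samples. The part of these cells in the Ptgds result was not tested.

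**Figure D4:**
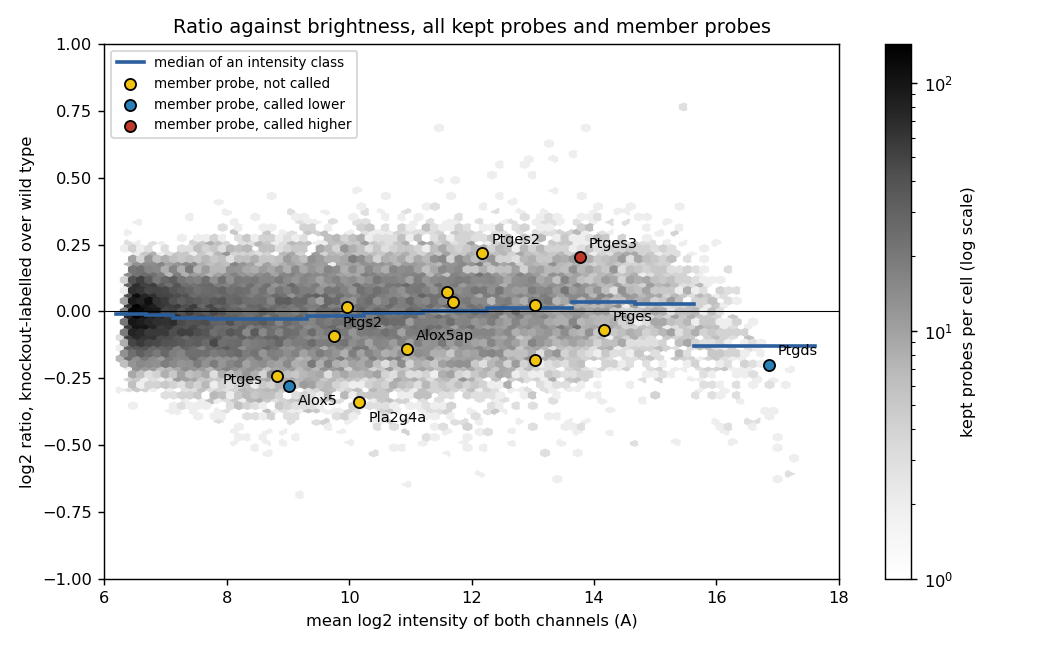
Mean log2 ratio, knockout-labelled over wild type (vertical axis), against mean log2 intensity of both channels (horizontal axis) for all kept probes (grey cells, darker with more probes) and the 14 member probes (circles, coloured by call). The blue line is the median in each brightness class. It lies between -0.030 and 0.035 up to the brightest 2%, where it drops to -0.13 and where Ptgds lies. Probes beyond a ratio of 1 in size are not drawn.

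In the leukotriene branch, Alox5 (5-lipoxygenase, the enzyme that starts leukotriene synthesis in myeloid cells) was lower in the knockout-labelled cortex. Its log2 levels were 8.54, 8.74, 9.14 and 9.09 in the knockout-labelled samples, against 8.95, 9.23, 9.26 and 9.17 in the wild-type samples. Each knockout-labelled sample was below its partner, further on arrays 1 and 2 than on arrays 3 and 4, and the groups overlapped. The ratios were -0.41, -0.50, -0.12 and -0.08, with a mean of -0.28 ± 0.21 (SD, n = 4; 95% interval -0.45 to -0.10; limma, adjusted p = 0.0406). The call rested on the pairing of samples by array. With the channels as separate samples and no replicate block the adjusted p was 0.188. It also ended in the scanner software's log ratio (0.104), under plain subtraction (0.100), with a smaller offset (0.066) and without array 1, 2 or 3.

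Alox5ap, the membrane protein that presents arachidonate to Alox5, had log2 levels of 10.58, 10.70, 11.06 and 11.14 in the knockout-labelled samples, against 10.89, 11.06, 11.06 and 11.03 in the wild-type samples. It was lower on arrays 1 and 2, level on array 3 and slightly higher on array 4. Its mean log2 ratio of -0.14 ± 0.23 (SD, n = 4; 95% interval -0.33 to 0.05; limma, adjusted p = 0.259) did not pass. Ltc4s, which joins leukotriene A4 to glutathione, had log2 levels of 10.12, 10.05, 9.96 and 9.77 in the knockout-labelled samples, against 9.996, 9.80, 9.96 and 10.09 in the wild-type samples. Ratios of 0.13, 0.26, -0.01 and -0.32 gave a mean of 0.01 ± 0.25 (SD, n = 4; adjusted p = 0.920), with no common direction.

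Markers of the leukocytes in which the leukotriene branch is known were examined beside Alox5 and Alox5ap. Of 14 monocyte and macrophage probes 4 were lower and none higher, against 11.7% and 9.29% of all kept probes, and their median log2 ratios on arrays 1 to 4 were -0.27, -0.34, -0.10 and -0.03. The lower ones included 1 of 3 probes of Ms4a4c, at -0.49, and 1 of 2 probes of Adgre1, at -0.40. The other probes of these genes were not called, at -0.33 and -0.19 for Ms4a4c and -0.09 for Adgre1. The called Ms4a4c probe was at percentile 94.7 of brightness and the others at 16.8 and 15.2. Those dim probes were well above background in the knockout-labelled channel on 2 and 3 arrays. Which of the Ms4a4c probes measures the gene was not tested. Of 9 neutrophil probes 2 were lower, Elane at -0.22 and Csf3r at -0.25, and the medians were -0.22, -0.30, -0.10 and 0.04. The medians of both lists were, like Alox5ap, lower on arrays 1 and 2 than on arrays 3 and 4. The named probes that passed did not share that pattern, with -0.39, -0.56, -0.57 and -0.43 for Ms4a4c on arrays 1 to 4 and -0.11, -0.31, -0.36 and -0.21 for Csf3r. An Itgam probe that passed, A_55_P1977929, did share it, with -0.28, -0.24, -0.10 and -0.11 (limma, adjusted p = 0.0362). Other probes that had it did not pass, as S100a8 with -1.28, -1.18, -0.30 and 0.04 (limma, adjusted p = 0.057), S100a9 and Cd14. These Itgam, S100a8, S100a9 and Cd14 probes were chosen after their values were seen. Of 15 microglial probes 5 were lower, among them 1 of 2 probes of Cx3cr1 at -0.29 (the other at -0.09 was not called) and both of Olfml3 at -0.25 and -0.42. The microglial medians of -0.08, -0.11, -0.04 and -0.20 were lowest on array 4. Levels of single probes did not overlap between the groups for 3 of 14 monocyte, 0 of 9 neutrophil and 4 of 15 microglial probes, against 19.7% of all kept probes. Summed linear levels are carried by a few bright probes, those of Itgam and Ms4a4c in the monocyte list and that of Csf3r in the neutrophil list, and say little about the rest of a list. The monocyte sums were 54350 to 59275 in knockout-labelled samples and 66535 to 77079 in wild-type samples. The neutrophil sums were 45707 to 54269 in knockout-labelled samples and 57942 to 66667 in wild-type samples. The microglial sums were 113116 to 123839 in knockout-labelled samples and 128091 to 140666 in wild-type samples. Ltf of the neutrophil list was not well above background often enough to be kept. Of 8 mast cell genes only Kit and Tpsb2 had kept probes: Cma1, Cpa3, Fcer1a, Mcpt4 and Ms4a2 were too dim, and Tpsab1 had no matched probe. The part of these cells in the Alox5 result was not tested.

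The spread was wider in the knockout-labelled samples for 12 of 14 member probes (85.7%), against 61.7% of all kept probes. That share rose with brightness, from 49.1% in the dimmest 10% of kept probes to 78.7% in the brightest 2%. No member probe lay below the 44.4th percentile of brightness. The share was 80.6% over all cell marker probes and 70.4% over the other pathway probes, so a wider spread was not particular to the members. The median ratio of the SDs of the log2 levels, knockout-labelled over wild type, was 1.9 for the members and 1.2 for all kept probes. For Pla2g4a, the dimmer Ptges probe, Alox5 and Alox5ap, the low knockout-labelled samples were those of arrays 1 and 2, whereas for Ltc4s the low sample was that of array 4. No correlation between members is given, since with 4 arrays it could not be told from the shared array pattern.

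The other genes of the pathway, drawn from 6 lists, had 71 kept probes of 54 genes, of which 6 were higher and 8 lower, with a median log2 ratio of 0.00. In the leukotriene enzyme list 3 of 10 probes rose and none fell, against 9.29% and 11.7% of all kept probes. Both probes of Mgst3, a microsomal glutathione transferase, rose, by 0.48 ± 0.10 and 0.32 ± 0.08 (SD, n = 4; limma, adjusted p = 0.0023 and 0.00642). Lta4h, which makes leukotriene B4, rose by 0.22 ± 0.13 (adjusted p = 0.0336). The median of the list was 0.04. Alox15, Alox8, Dpep1 and Dpep2 were too dim to be tested. In the phospholipase and arachidonate release list 2 of 24 probes rose and 1 fell, with a median of 0.03. Pla2g15, a lysosomal phospholipase, rose by 0.29 ± 0.04 (SD, n = 4; adjusted p = 0.00589). Mgll, which frees arachidonate from 2-arachidonoylglycerol in the brain, had probes that moved in opposite directions. Its probe A_55_P2063312 rose by 0.31 ± 0.10 (SD, n = 4, limma, adjusted p = 0.00893), and A_55_P2063316 was at -0.21 ± 0.10 (adjusted p = 0.0299). A further Mgll probe, A_55_P2114863, was not called, at 0.05 ± 0.19 (SD, n = 4, limma, adjusted p = 0.669).

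Among the terminal prostanoid synthases 3 of 11 probes fell and none rose, against 11.7% and 9.29% of all kept probes, with a median of -0.03. One of 3 Gstm2 probes (a glutathione transferase) was at -0.30 ± 0.16 (SD, n = 4; limma, adjusted p = 0.0193), Cbr1 (a carbonyl reductase that acts on prostaglandins) at -0.17 ± 0.05 (adjusted p = 0.0281) and Tbxas1 (thromboxane A synthase) at -0.18 ± 0.11 (adjusted p = 0.0462). Of 11 probes for transport and breakdown 2 fell and none rose, against the same shares of 11.7% and 9.29%, with a median of -0.10. They were Abcc4, a pump that exports prostaglandins, at -0.33 ± 0.18 (SD, n = 4; limma, adjusted p = 0.0175) and Slco2a1, the prostaglandin uptake carrier, at -0.30 ± 0.16 (adjusted p = 0.0178). Among 9 prostanoid receptor probes Ptger1 (the EP1 receptor) fell, at -0.27 ± 0.15 (SD, n = 4; limma, adjusted p = 0.0234), and 1 of 2 probes of Ptger3 (the EP3 receptor) rose by 0.24 ± 0.18 (adjusted p = 0.0469), with a median of -0.06 for the list. Among 6 leukotriene and lipoxin receptor probes Fpr2, which binds formylated peptides, fell, at -0.33 ± 0.21 (SD, n = 4; limma, adjusted p = 0.0264), while Ltb4r2, a leukotriene B4 receptor, did not pass at 0.10 (adjusted p = 0.139); the median was -0.02. Leaving out single arrays left 4 to 6 of the 71 probes higher and 0 to 6 lower. Without array 1 none was lower (limma, unadjusted p under 0.05 for 13), and without array 2 there was 1, without array 4 there were 3. Among the pathway calls those of Tbxas1 and Ptger3 ended most often, in 10 and 8 of 15 alternative settings. The plot of pathway lists shows each probe.

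**Figure D5:**
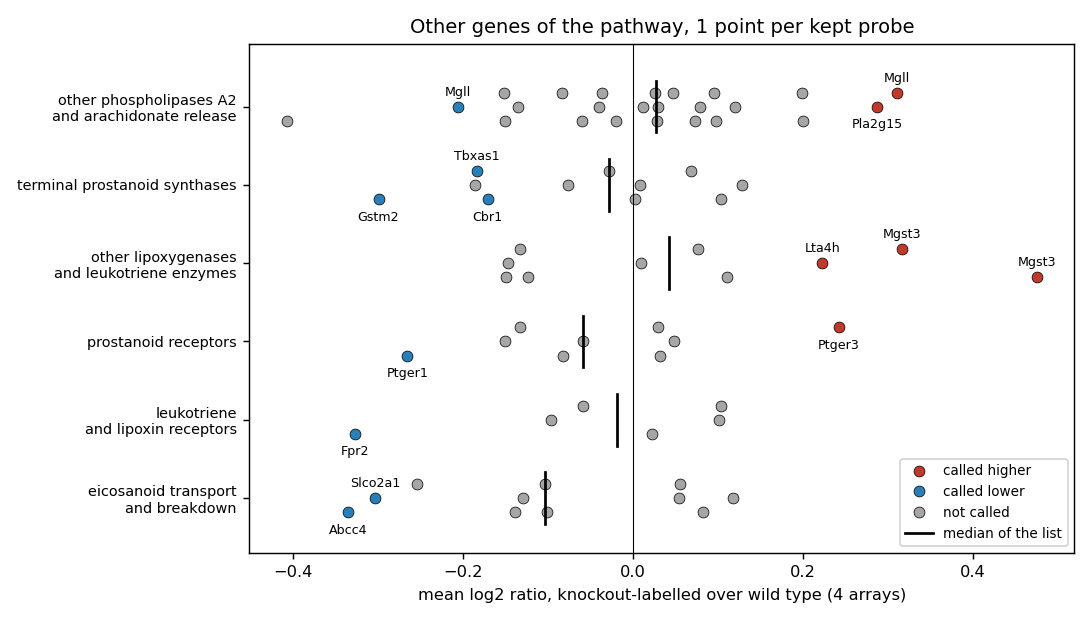
Mean log2 ratio over 4 arrays, knockout-labelled over wild type (horizontal axis), of each of the 71 kept probes in 6 lists of other pathway genes; red points were called higher (6), blue points lower (8), grey points neither, and a black bar marks the median of each list. The named higher points are in the release, leukotriene enzyme and prostanoid receptor lists, and both transport points that passed lie to the left.

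The probes most like the Ptges3 probe that rose, by Euclidean distance between the log2 ratios on the 4 arrays over kept probes of other genes, included those of Cct7 (0.0634), Rbbp6 (0.0708), Rsl1d1 (0.0713) and Psmd12 (0.0738). These 4 were called higher, with mean log2 ratios of 0.20 to 0.23. They were picked for ratios close to those of the called Ptges3 probe, so their calls follow from that choice and add no support.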

How the data were processed

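Total RNA of 4 knockout-labelled and 4 wild-type samples was hybridised in pairs to 4 Agilent 2-colour arrays, per the labels (200 ng of RNA per sample). The labelling protocol in the labels names another kind of tissue. Per the file headers, the deposited spot and background intensity values came from Feature Extraction 11.0.1.1, while the submitters' processing notes name 10.7.3.1. The deposited log10 ratio is the scanner software's red over green, per the file headers, and the authors' log2 table held the same ratio. All arrays lay on 1 slide.

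Median spot intensity was background-corrected by normexp (offset 50) and loess-normalized in limma 3.58.1 under R 4.3.3 (controls weighted 0). Outlier spots were left out, spots of a probe averaged, and probes kept when well above background on at least 3 arrays in either channel. The log2 ratio of knockout-labelled (Cy3) over wild type (Cy5) was fitted with lmFit and eBayes over 30259 probes with Benjamini-Hochberg adjustment (threshold 0.05). Levels per channel followed Aquantile normalization. Symbols came from RefSeq accessions, which 28829 probes carried and 27427 of them matched. The array pairs the samples, since both dyes share it. Scripts were tested on simulated data. Members and lists were chosen with earlier results of these data known. Named were all members, pathway probes that passed (or the 2 smallest p where fewer than 2 did), the 2 smallest p of each marker list, and the 5 probes most like the member probe with the smallest p, of which 1 is not reported here. The number of arrays limits the precision. Alternatives covered the background, normalization, filter, outlier spots, probe choice, arrays left out and no block.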

Additional observations from a re-analysis of the deposited data

Results flagged for a closer look

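No member probe passed Dixon's 95% limit, although the ratio of Ptges2 on array 1 (0.60) stood well above those on the other arrays (0.05 to 0.14). Among the named markers, the Adgre1 probe A_55_P2144386, of a macrophage surface receptor, had log2 ratios of -0.49, -0.18, -0.45 and -0.45 on arrays 1 to 4. The gap between array 2 and the nearest of the others made up 0.867 of the distance between lowest and highest, which is past that limit for a group of 4. It was the only one of 55 named probes past it, where chance passes about 1 group in 20.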

How the results depend on the processing

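The number of member probes called (1 higher and 2 lower) was 0 and 0 with a normexp offset of 16 (limma; unadjusted p under 0.05 for 1 higher and 4 lower) and under plain subtraction (1 and 4), 1 and 1 with no filter on dim probes, 1 and 0 with the scanner's log ratio (unadjusted 1 and 1), 1 and 0 with no replicate block (unadjusted 1 and 3) and 0 and 13 under median centring. It did not move without background correction, with scale normalization, with the stricter filter, with outlier spots kept or with the brightest probe per gene. Leaving out an array in turn gave 0 to 1 higher and 0 to 2 lower. Over all probes (2811 higher, 3527 lower) plain subtraction gave 1798 and 1915, median centring 7883 and 15614, no replicate block 1683 and 1777, and the scanner's log ratio 2028 lower; without an array in turn there were 1064 to 1651 higher and 1356 to 2164 lower. Of the other pathway probes (6 higher, 8 lower) median centring called 20 and 32, and 0 were lower under plain subtraction (unadjusted 11), 1 with the scanner's log ratio and 3 with no replicate block; without an array in turn 4 to 6 were higher and 0 to 6 lower.

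Median centring moved the median of all kept probes from -0.01 to -0.16 and turned Ptgs1 to -0.24, Ptges2 to -0.12, the Ptges3 probes A_55_P1994355, A_55_P2018542 and A_55_P2079485 to -0.24, -0.28 and -0.36, Ltc4s to -0.23, Mgll A_55_P2063312 to -0.011, Mgst3 A_51_P215077 to -0.026 and Lta4h to -0.089; the cause was not tested. Without an array in turn Ptgs1 ranged over -0.023 to 0.13, Ptges3 A_55_P2079485 over -0.018 to 0.055 and Ltc4s over -0.066 to 0.13, changing sign. Over all alternatives the adjusted p of Alox5 ranged over 0.000574 to 0.188, that of Ptgds over 4.54e-06 to 0.620, that of Ptges3 A_55_P1994355 over 0.00596 to 0.115 and that of Pla2g4a over 0.000535 to 0.170. The lowest value of each came from median centring. For Ptges3 A_55_P1994355 it therefore belongs to a lower ratio, of -0.24, and not to a rise. The lowest signal over local background of a member was that of the dimmer Ptges probe, at 3.92 times.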

Other observations

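Markers of other brain cells not named above were also examined. Of 17 astrocyte probes 6 were lower and none higher, against 11.7% and 9.29% of all kept probes. Among them were 2 of 3 probes of Slc1a2, a glutamate transporter, at -0.46 ± 0.09 and -0.30 ± 0.09, while the third was at -0.08 and was not called (SD, n = 4; limma, adjusted p = 0.0023, 0.008 and 0.358). Aldoc, a glycolytic enzyme, was at -0.39 ± 0.09 (adjusted p = 0.0040). Summed linear levels of the astrocyte list were 192800 to 222286 in knockout-labelled samples and 244448 to 261592 in wild-type samples. Much of these sums comes from the Aldoc probe, with mean log2 levels of 16.61 in knockout-labelled and 17.00 in wild-type samples. It lies in the brightest 2% of probes, where the median log2 ratio was -0.13, and the part of that shift was not tested. Of 10 neuronal probes 1 was higher, 1 of 3 probes of Rbfox3 at 0.35, while the other Rbfox3 probes, both brighter, were at -0.12 and -0.05 and were not called. A further 2 neuronal probes were lower, among them Stmn2 at -0.22. Of 11 endothelial probes 1 was lower, 1 of 2 probes of Ly6c1 at -0.39 with the other at -0.01, while Cdh5 did not pass at -0.40 (limma, adjusted p = 0.0556). The neuronal and endothelial counts were near the shares of all kept probes, 11.7% lower and 9.29% higher. In the choroid plexus list Ttr, at -0.64, missed the threshold (limma, adjusted p = 0.0572). Of the 3 mast cell probes 1 was lower, of Tpsb2, at -0.22, and the other Tpsb2 probe was not well above background in the knockout-labelled channel on any array.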
